A study of Homo sapiens with 6 samples.

Results

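The SLC25 genes encode the mitochondrial carriers, the largest solute carrier family of human cells. They were examined in UM-SCC1, an HNSCC line (head and neck squamous cell carcinoma) that grows as an established culture, after transfection of miR-204-5p mimics or control mimics. Members were all rows of the expression table whose gene symbol starts with SLC25A and a number, which gave 41 of 14959 genes. All 41 are annotated as protein-coding, and no antisense RNA or pseudogene matched. A further 7 carriers, SLC25A2, SLC25A31, SLC25A41, SLC25A47, SLC25A48, SLC25A52 and SLC25A53, have no row under these symbols in the expression table and were not analysed here. Mimics are synthetic RNA duplexes that enter Argonaute in place of the natural miRNA, and control mimics are duplexes given as the matched control. Transfected cells were, by the study's general protocol, harvested at 48 h, and each group has 3 libraries. All 6 libraries come from 1 cell line, and no engineered allele is named for the cells sequenced. The labels number the libraries as replicates without saying whether they were separate cultures, so p-values measure the spread between these libraries, which may be technical.

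Most carriers sit in the inner mitochondrial membrane, where each exchanges or imports a small set of metabolites: nucleotides, phosphate, carboxylic acids, amino acids, cofactors or iron. They thereby link the cytosol to the respiratory chain, the citric acid cycle, the urea cycle, fatty acid oxidation and heme synthesis. A miRNA lowers mRNAs mainly by pairing of its seed, the bases near its 5′ end, with sites in the 3′UTR. The comparison asked which carrier mRNAs differed after transfection of the miRNA, and whether those with seed matches were among them.

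The mature sequence of miR-204-5p, from RefSeq on GRCh38.p14 (chromosome 9, 70810031 to 70810052, minus strand), is given first because its seed, in capitals, defines the sites searched. The sites below it lie in the longest 3′UTR of GENCODE 29 (GRCh38) of 4 carriers, with the match in capitals. They comprise both carriers with a full match of 8 bases, the single carrier with a match to bases 2 to 8 only, and the single carrier with a match that was lower with miR-204-5p mimics.
hsa-miR-204-5p: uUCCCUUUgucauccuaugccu
SLC25A24: tttttttcacaAAAGGGAAgatggtaacaa
SLC25A34: tgaggcccgggAAAGGGAAgcgacgtggca
SLC25A27: tactgtaaattAAAGGGAggtgaatggaaa
SLC25A44: cactgaggaacAAGGGAAtgaaaaggcaga
The SLC25A24 site shown lies on chromosome 1 from 108136532 to 108136539 on the minus strand, in exon 10, starting 114 bases into a 3′UTR of 2617 bases. The SLC25A34 site spans 15741131 to 15741138 of chromosome 1 (plus strand), in exon 5. The site of SLC25A27 spans 46676960 to 46676966 of chromosome 6 (plus strand), in exon 9, and that of SLC25A44 spans 156212667 to 156212673 of chromosome 1 (plus strand), in exon 4. The transcript listed for each of these 4 genes contains its site.

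Expression is given in FPKM, fragments per kilobase of exon and per 1000000 mapped fragments, as computed by the authors. Differences are given as log2FC, the log2 fold change of FPKM + 1 (miR-204-5p mimics minus control mimics) with its standard error (SE), from limma fitted to all 14959 genes with Benjamini-Hochberg adjustment over all of them. This scale understates changes of genes with low FPKM. Spearman correlations across genes were 0.9899 to 0.9908 within groups and 0.9733 to 0.9756 between groups. Of 9 epithelial markers, not all of them particular to squamous epithelium, 8 were at 1 FPKM or more in every library, KRT6A being the exception. Their summed FPKM was 873 to 968 under miR-204-5p and 997 to 1030 in the controls, but single markers moved in both directions. With a limma adjusted p under 0.05, TP63 and DSG3 (log2FC −1.01 each), KRT14 (−0.51), KRT5 (−0.43) and EPCAM (−0.21) were lower. By the same criterion SFN (0.26), CDH1 (0.39) and KRT6A (0.81) were higher, and KRT17 (−0.18) did not pass. The part of these differences in the carrier values was not tested. The 4 leukocyte markers in the table summed to 12.3 to 14.0 FPKM against 16.5 to 17.4, nearly all of it CD14. The 2 fibroblast markers summed to 9.44 to 11.1 FPKM against 8.40 to 9.15, mostly COL1A1, and the 3 endothelial markers to at most 0.767 FPKM. In bulk RNA, fewer cells with an mRNA and less of it per cell cannot be told apart.

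The carriers spanned a wide range of levels. Averaged over the 6 libraries, SLC25A5 (ADP/ATP carrier 2) was highest at 522 FPKM, followed by SLC25A6, SLC25A1, SLC25A3, SLC25A28, SLC25A11 and SLC25A39. A mean above 100 FPKM was found for 2 carriers, 10 to 100 FPKM for 14, 1 to 10 FPKM for 21 and below 1 FPKM for 4, with a median of 7.16 FPKM against 5.91 FPKM for all genes. The lowest were SLC25A45, SLC25A18, SLC25A34 and SLC25A21, and SLC25A45 averaged 0.375 FPKM. Replicates lay close together. The highest library exceeded the lowest by a median factor of 1.13 under miR-204-5p and 1.18 in the controls, and by more than 1.5 in a group for 5 carriers.

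**Figure D1:**
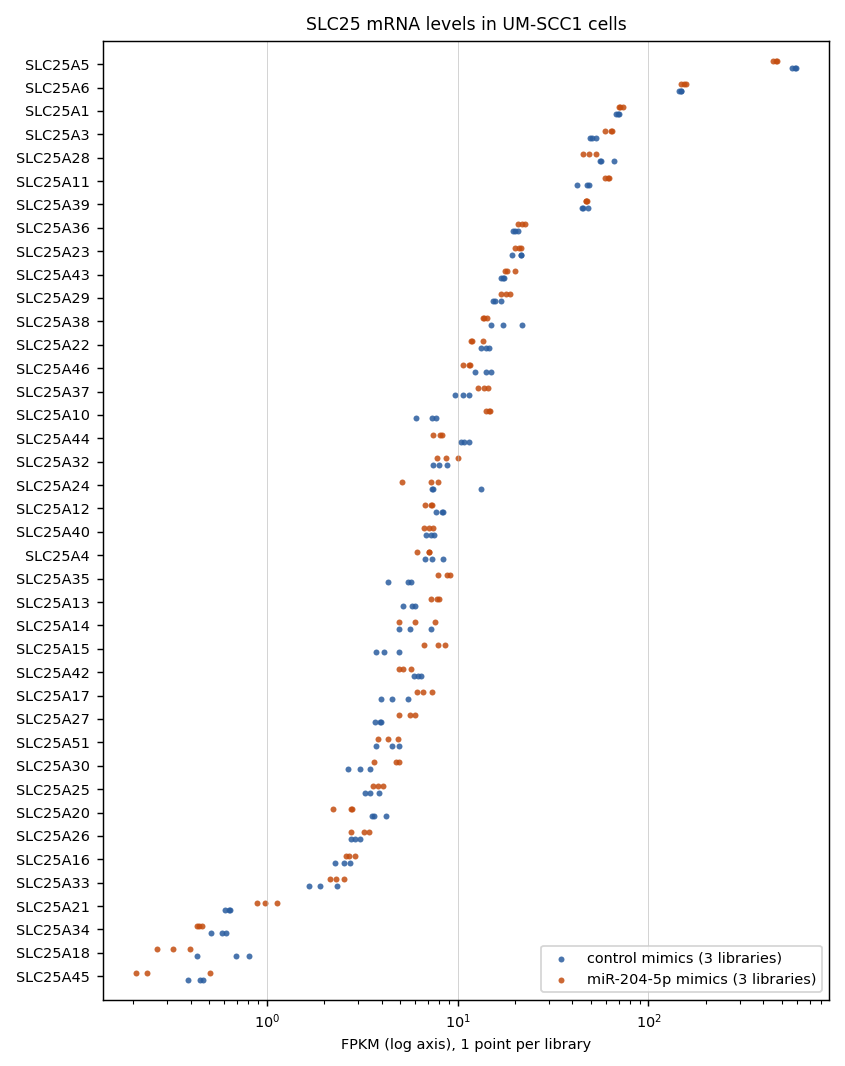
FPKM of 40 SLC25 genes on a log axis, 1 point per library, for 3 libraries with control mimics (blue) and 3 with miR-204-5p mimics (orange), ordered by mean level. SLC25A5 lies far to the right with all its orange points below its blue points, and the SLC25A10 points of the groups are apart in the other direction.

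With a limma adjusted p under 0.05, 12 carriers were higher and 6 lower with miR-204-5p mimics, and 23 did not pass. Without control mimics replicate 2 the number lower was 3. Quantile normalization gave 11 carriers higher and 9 lower, among 3043 genes higher and 3026 lower, against 3578 and 2520 genes without it. With the FPKM scaled to equal medians 12 carriers were higher and 9 lower, among 3106 genes higher and 2948 lower. Equal sums gave the same carrier counts, among 3080 genes higher and 2885 lower. The 18 carriers called are 43.9% of the family, close to the 40.8% of all genes called by the same criterion. By direction, 29.3% of carriers were higher against 23.9% of all genes, and 14.6% were lower against 16.8%. The groups did not overlap for 26 carriers (63.4%) against 53.6% of all genes. The median log2FC was 0.06 for the carriers and 0.03 for all genes, and the median absolute value 0.195 and 0.179. The family thus moved about as often as genes in general, in both directions, and what follows describes which carriers moved. All 18 carriers called had groups that did not overlap. With 3 libraries against 3, a two-sided exact permutation test of a single gene cannot go below p = 0.1. At an unadjusted p under 0.05 limma called 23 carriers, 13 higher and 10 lower, beside 4290 of 14959 genes higher and 3105 lower.

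**Figure D2:**
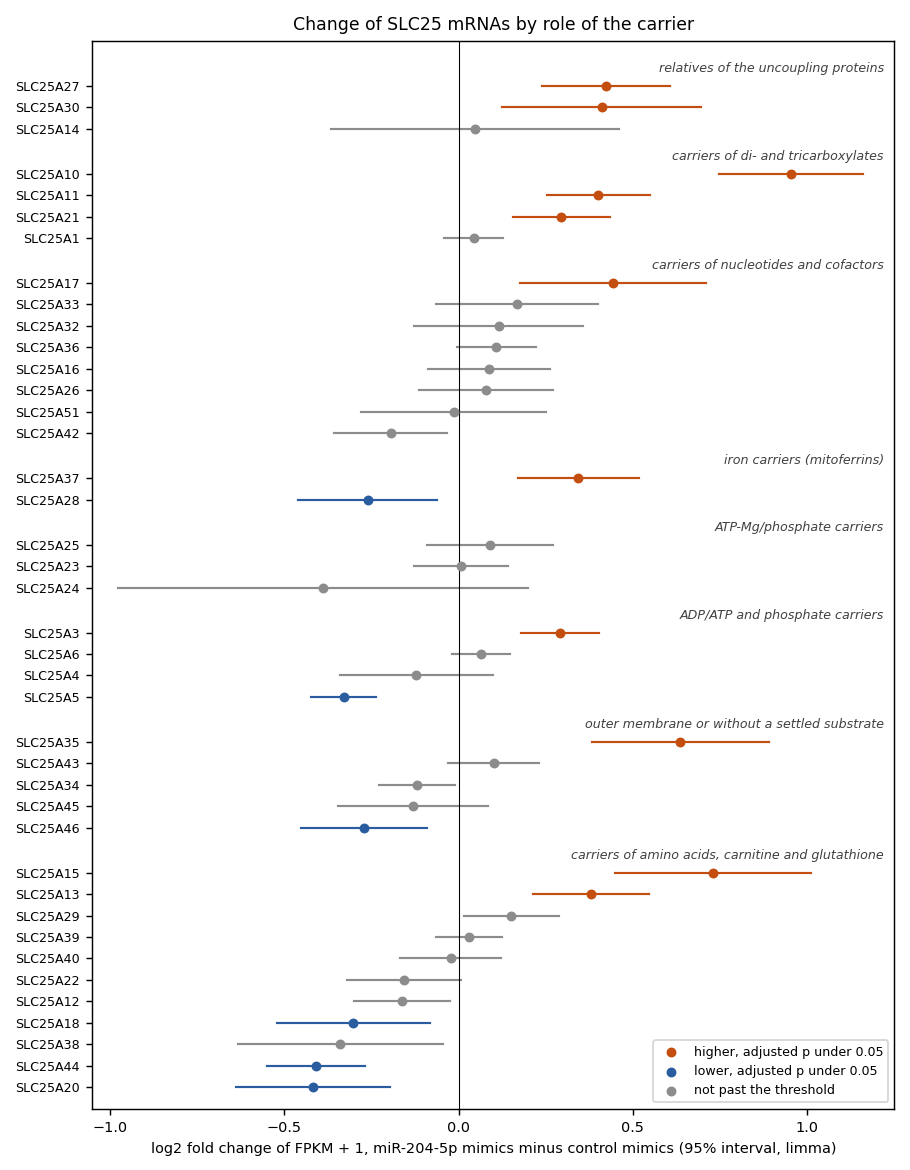
Log2 fold change of FPKM + 1 (miR-204-5p mimics minus control mimics) with its 95% interval from limma for 40 SLC25 genes, grouped by the role of the carrier. Orange and blue mark 11 genes higher and 6 lower with an adjusted p under 0.05, and gray marks the other 23. SLC25A10 at 0.95 is the farthest right and SLC25A20 at −0.42 the farthest left.

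The carriers of di- and tricarboxylates, which move intermediates of the citric acid cycle across the inner membrane, held the largest rise. Of 4 measured, 3 were higher and none was lower (0 also at an unadjusted p under 0.05 in limma), beside 23.9% of all genes higher and 16.8% lower. The same shares over all genes apply to the counts of the other groups of carriers and of the lists. SLC25A10 (ENSG00000183048, plus strand of chromosome 17, 81712236 to 81721016 on GRCh38), the dicarboxylate carrier that exchanges malate or succinate for phosphate, had 14.8, 14.1 and 14.7 FPKM with miR-204-5p mimics and 6.04, 7.39 and 7.73 with control mimics. The groups were far apart, a ratio of means of 2.06. Its log2FC of 0.95 (SE 0.0860, limma adjusted p = 0.000387) was the largest of the family. For SLC25A11, the oxoglutarate carrier of the malate-aspartate shuttle, the values were 62.4, 59.0 and 61.7 FPKM against 42.0, 47.6 and 48.7. All 3 libraries with miR-204-5p mimics were thus above the highest control, with a log2FC of 0.40 (SE 0.0614, limma adjusted p = 0.00291). SLC25A21, the oxodicarboxylate carrier of lysine and tryptophan breakdown, stayed low, at 1.13, 0.890 and 0.979 FPKM against 0.605, 0.645 and 0.633. Its ratio of means was 1.59, and its log2FC was 0.295 with a pseudocount of 1 (limma adjusted p = 0.00788) and 0.59 with a pseudocount of 0.1. The gene span of SLC25A21, introns included, overlaps PAX9 on the opposite strand by 1285 bases. PAX9 had 2.37 against 2.07 FPKM and did not pass (log2FC 0.14, limma adjusted p = 0.222). No strand-specific protocol is stated, so reads in shared exons may not be told apart. SLC25A1, the citrate carrier that feeds cytosolic lipid synthesis, had 71.4 ± 1.89 (SD, n = 3) and 69.2 ± 1.09 FPKM, with overlapping groups. Its log2FC of 0.04 (95% interval −0.04 to 0.13) did not pass (limma adjusted p = 0.370).

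Among the carriers of amino acids, carnitine and glutathione, 2 were higher, 3 lower and 6 did not pass. SLC25A15 (ENSG00000102743, plus strand of chromosome 13, 40789497 to 40810111), the ornithine/citrulline carrier of the urea cycle, had 6.68, 8.64 and 7.87 FPKM with miR-204-5p mimics and 4.12, 3.72 and 4.95 with control mimics. No control reached the lowest of the treated libraries, with a ratio of means of 1.81 and a log2FC of 0.73 (SE 0.117, limma adjusted p = 0.00345). GENCODE 29 lists 5 pseudogenes of SLC25A15, and how the authors' mapping treated reads shared with them is not given in the sources used here. SLC25A13, which encodes citrin, an aspartate/glutamate carrier that brings reducing equivalents into mitochondria, had 7.97, 7.80 and 7.22 FPKM against 6.01, 5.20 and 5.78. Its groups did not overlap, and the log2FC was 0.38 (SE 0.0690, limma adjusted p = 0.00574).

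The 3 lower members of this group carry other substrates. SLC25A20, the carnitine/acylcarnitine carrier through which long-chain fatty acids enter the matrix for oxidation, had 2.23, 2.80 and 2.77 FPKM with miR-204-5p mimics and 4.21, 3.67 and 3.55 with control mimics. It had the most negative log2FC of the family with a pseudocount of 1, −0.42 (SE 0.0921, limma adjusted p = 0.0120). With a pseudocount of 0.1 SLC25A20 had −0.54, and SLC25A18 was more negative at −0.77. SLC25A44, a carrier of branched-chain amino acids, had 7.48, 8.12 and 8.25 FPKM against 10.8, 11.4 and 10.4. The groups were well separated, with a log2FC of −0.41 (SE 0.0587, limma adjusted p = 0.00223). SLC25A18, glutamate carrier 2, was near the bottom of the family at 0.322, 0.266 and 0.395 FPKM against 0.689, 0.806 and 0.433. Control replicate 3 lay close to the libraries with miR-204-5p mimics. The log2FC was −0.30 (limma adjusted p = 0.0389) and −0.77 with a pseudocount of 0.1. The call was lost without any 1 of the miR-204-5p mimics replicates or without control mimics replicate 1 or 2 (limma adjusted p from 0.0589 to 0.114).

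Of the 6 carriers of this group that did not pass, SLC25A38, a glycine carrier needed for heme synthesis, came closest to the size of those called. It had 13.7, 14.3 and 13.6 FPKM with miR-204-5p mimics and 15.1, 21.8 and 17.2 with control mimics, so that the groups did not overlap but the controls were spread widely (log2FC −0.34, limma adjusted p = 0.0667). It passed without control mimics replicate 1 (log2FC −0.45, limma adjusted p = 0.0220), with equal medians (limma adjusted p = 0.0426) and with equal sums (limma adjusted p = 0.0474). Without control mimics replicate 2 it did not pass, and its log2FC was −0.20 (limma adjusted p = 0.0797). SLC25A12, which encodes aralar, the other aspartate/glutamate carrier, had 7.16 ± 0.318 and 8.12 ± 0.363 FPKM (SD, n = 3) with no overlap and a log2FC of −0.16 (limma adjusted p = 0.0649). It passed as lower with equal medians, equal sums, quantile normalization and without genes of low FPKM (limma adjusted p from 0.0298 to 0.0490). SLC25A22 (glutamate carrier 1) had a log2FC of −0.16, and of −0.22 without miR-204-5p mimics replicate 3, where it passed (limma adjusted p = 0.0337). SLC25A29 (basic amino acids) had a log2FC of 0.15. The glutathione carriers SLC25A39 and SLC25A40 had 0.03 (95% interval −0.06 to 0.13) and −0.02 (95% interval −0.17 to 0.12).

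The ADP/ATP carriers bring ADP into the matrix and ATP out, and the phosphate carrier supplies the phosphate for ATP synthesis. Of these mRNAs, SLC25A5 was lower and SLC25A3 higher, while SLC25A6 and SLC25A4 did not pass. SLC25A5 (ENSG00000005022, plus strand of chromosome X, 119468400 to 119471319) had 470, 452 and 466 FPKM with miR-204-5p mimics and 584, 565 and 595 with control mimics. The spread within a group was small beside the gap, and the log2FC was −0.33 (SE 0.0388, limma adjusted p = 0.00103). SLC25A6, ADP/ATP carrier 3, had 153, 149 and 158 FPKM against 147, 147 and 145, all above the controls but only slightly. Its log2FC of 0.06 (95% interval −0.02 to 0.15) did not pass (limma adjusted p = 0.195). SLC25A4, ADP/ATP carrier 1 of heart and muscle, had 7.12, 7.11 and 6.15 FPKM against 7.34, 6.74 and 8.37, with overlapping groups (log2FC −0.12, limma adjusted p = 0.336).

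The summed FPKM of SLC25A4, SLC25A5 and SLC25A6 was 630, 608 and 630 with miR-204-5p mimics and 739, 719 and 749 with control mimics. SLC25A5 made up 73.9% to 74.6% of this sum under miR-204-5p and 78.6% to 79.5% in the controls, and SLC25A6 24.3% to 25.1% and 19.4% to 20.5%. The shares did not overlap between groups. GENCODE 29 lists 9 pseudogenes of SLC25A5 and 6 of SLC25A6, so a part of their reads is uncertain.

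SLC25A3, the phosphate carrier (ENSG00000075415, plus strand of chromosome 12, 98593591 to 98606379), had 64.3, 63.7 and 59.5 FPKM with miR-204-5p mimics and 49.2, 50.5 and 52.9 with control mimics. It rose in all 3 libraries above the highest control, with a log2FC of 0.29 (SE 0.0467, limma adjusted p = 0.00341). Its FPKM rests on 6960 bases of merged exons, while its coding transcripts have a median length of 1351 bases. Without the division by length, SLC25A3 stood for 435 and 354 fragments per 1000000 mapped fragments (means with miR-204-5p and control mimics), more than the 316 and 302 of SLC25A6, and SLC25A5 for 589 and 741. The ATP-Mg/phosphate carriers, which adjust the adenine nucleotide content of the matrix in response to calcium, held no call among 3, nor any at an unadjusted p under 0.05 in limma. SLC25A23 had a log2FC of 0.01 (95% interval −0.13 to 0.14) and SLC25A25 one of 0.09 (95% interval −0.09 to 0.27).

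Among 9 carriers of nucleotides and cofactors, 2 were higher and none was lower (1, SLC25A42, at an unadjusted p under 0.05 in limma). SLC25A17, a carrier of the peroxisomal membrane, had 7.32, 6.16 and 6.57 FPKM with miR-204-5p mimics and 4.52, 3.997 and 5.51 with control mimics. The log2FC was 0.44 (limma adjusted p = 0.0196), and the call was lost without miR-204-5p mimics replicate 1 or 3 or control mimics replicate 1 or 2 (limma adjusted p from 0.0505 to 0.0624). For the 7 that did not pass, the log2FC values ran from −0.19 for SLC25A42 (coenzyme A) to 0.17 for SLC25A33 (pyrimidine nucleotides). SLC25A42 had 5.29 ± 0.400 and 6.19 ± 0.263 FPKM (SD, n = 3) without overlap and just missed the threshold (limma adjusted p = 0.0594). It passed with the FPKM scaled to equal medians or equal sums, with quantile normalization, without genes of low FPKM, without a trend and without miR-204-5p mimics replicate 2 (limma adjusted p from 0.0280 to 0.0450).

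The mitoferrins import iron for heme and iron-sulfur clusters, and their mRNAs moved apart. SLC25A37, mitoferrin 1, had 12.8, 13.8 and 14.5 FPKM with miR-204-5p mimics and 10.6, 11.4 and 9.73 with control mimics. It was higher, with a log2FC of 0.34 (SE 0.0723, limma adjusted p = 0.0102). SLC25A28, mitoferrin 2, was more abundant at 53.4, 45.6 and 49.1 FPKM against 56.6, 65.8 and 55.7. It was lower (log2FC −0.26, limma adjusted p = 0.0455), but the call was lost in 5 of 6 fits that left out 1 library, all but the one without miR-204-5p mimics replicate 1 (limma adjusted p from 0.0524 to 0.129), and without a trend (0.0555).

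The relatives of the uncoupling proteins have transport roles that are less well settled. SLC25A27, also called UCP4 and best known from brain, had 4.95, 5.63 and 6.01 FPKM with miR-204-5p mimics and 3.95, 3.71 and 3.93 with control mimics. It rose, with a log2FC of 0.42 (SE 0.0763, limma adjusted p = 0.00563). SLC25A30 had 4.74, 4.92 and 3.64 FPKM against 2.68, 3.09 and 3.46, with miR-204-5p mimics replicate 3 barely above the highest control. Its log2FC was 0.41 (limma adjusted p = 0.0331), and the call was lost without miR-204-5p mimics replicate 1 or 2, without control mimics replicate 1 or 2, and with quantile normalization (limma adjusted p from 0.0734 to 0.102). SLC25A14, also called UCP5, ranged from 4.96 to 7.65 FPKM and from 4.92 to 7.30 FPKM in the groups, with a log2FC of 0.05 (95% interval −0.37 to 0.46).

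Of 5 carriers at the outer membrane or without a settled substrate, 1 was higher and 1 lower. SLC25A35 (ENSG00000125434, minus strand of chromosome 17, 8287763 to 8295343), whose substrate is not settled, had 7.85, 8.80 and 9.13 FPKM with miR-204-5p mimics and 5.73, 5.53 and 4.32 with control mimics. Its ratio of means was 1.65 and its log2FC 0.64 (SE 0.106, limma adjusted p = 0.00403). It overlaps RANGRF on the opposite strand by 1596 bases of gene span, introns included. Since no strand-specific protocol is stated, reads in shared exons may not be told apart. RANGRF was higher as well (log2FC 0.38, limma adjusted p = 0.00185). SLC25A46, an outer membrane protein of mitochondrial fission and lipid transfer, had 10.7, 11.6 and 11.5 FPKM against 12.4, 14.2 and 14.99. The log2FC was −0.27 (limma adjusted p = 0.0280), and without any 1 of the miR-204-5p mimics replicates or without control mimics replicate 2 or 3 the call was lost (limma adjusted p from 0.0579 to 0.0834). The other 3, SLC25A34, SLC25A43 and SLC25A45, did not pass. Without miR-204-5p mimics replicate 1, SLC25A45 was lower (log2FC −0.23, limma adjusted p = 0.0166), against −0.13 with all libraries.

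Several substrates are served by more than 1 carrier, so the balance between carriers of the same substrate was compared within each library as the difference of their log2(FPKM + 1), which a scaling of a library hardly moves. Of 11 such pairs, 4 differed between groups without overlap. Each was at the minimum of a two-sided exact permutation test with 3 against 3, p = 0.1 (0.275 adjusted over the 11 pairs). The pairs were added after seeing the data, and their shifts restate the log2FC values of the single carriers, so these p-values only describe them. SLC25A28 minus SLC25A37 was 1.98, 1.66 and 1.69 with miR-204-5p mimics and 2.31, 2.43 and 2.40 with control mimics, a shift of −0.60 toward mitoferrin 1. SLC25A12 minus SLC25A13 was −0.11, −0.07 and −0.08 against 0.31, 0.59 and 0.46, a shift of −0.54. Aralar mRNA was thus above citrin mRNA in all 3 control libraries and slightly below it in all 3 libraries with miR-204-5p mimics, by FPKM + 1. SLC25A5 minus SLC25A6 was 1.61, 1.60 and 1.55 against 1.98, 1.93 and 2.03, a shift of −0.39. For SLC25A24 minus SLC25A25 the shift was −0.48, and −0.275 without control mimics replicate 2. The pyrimidine nucleotide, glutathione and glutamate pairs overlapped, with shifts of 0.06, 0.05 and −0.15.

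**Figure D3:**
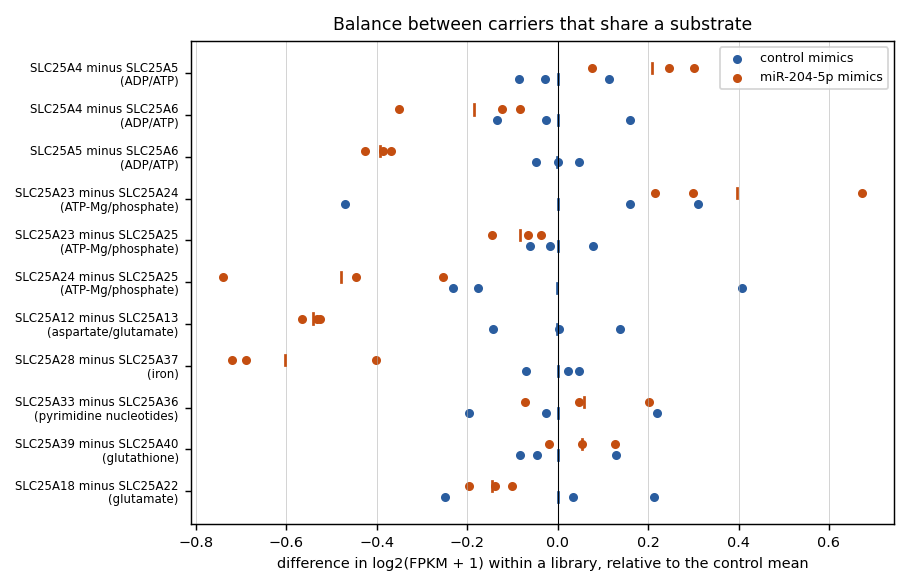
Difference in log2(FPKM + 1) between carriers of 1 substrate within each library, drawn relative to the mean of the control libraries, with a point per library and a bar for each group mean (control mimics in blue, miR-204-5p mimics in orange). The orange points of SLC25A5 minus SLC25A6, SLC25A12 minus SLC25A13 and SLC25A28 minus SLC25A37 lie wholly to the left of the blue points, with shifts of −0.39, −0.54 and −0.60, as do those of SLC25A24 minus SLC25A25.

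Matches to the seed were searched as AAAGGGAA (8mer), AAAGGGA not followed by A (7mer-m8) and AAGGGAA not preceded by A (7mer-A1), each gene being counted once under its best match and only the transcript's own strand being read. A match was present in the longest 3′UTR of 10 of 41 carriers (24.4%), against 27.1% of 14664 genes with a 3′UTR. An 8mer was present in 2 carriers (4.88%, against 8.60% of all genes), a 7mer-m8 in 1 (2.44%, against 9.83%) and a 7mer-A1 in 7 (17.1%, against 8.66%). Of the 10 carriers with a match, 1 was lower, 2 were higher and 7 did not pass, and their median log2FC was −0.02. Of the 3973 genes with a match, 1073 were lower and 651 higher, with a median of −0.03. Of the 31 carriers without a match, 10 were higher and 5 lower, with a median of 0.06. Of the 10691 genes without a match, 2906 were higher and 1438 lower, with a median of 0.06. Over all genes the median was −0.08 with an 8mer, with 422 of 1261 lower and 168 higher.

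Neither carrier with an 8mer passed the threshold in limma, and 1, SLC25A34, was lower at an unadjusted p under 0.05. SLC25A24, a calcium-regulated ATP-Mg/phosphate carrier, had 7.94, 5.09 and 7.26 FPKM with miR-204-5p mimics and 7.40, 13.3 and 7.38 with control mimics. The groups overlapped, and control mimics replicate 2 stood far above the other libraries. The log2FC of −0.39 (95% interval −0.98 to 0.20, limma adjusted p = 0.255) became −0.13 without that library. SLC25A34, a carrier without a settled substrate, had 0.442, 0.430 and 0.460 FPKM against 0.615, 0.582 and 0.510. These groups did not overlap, with a ratio of control to miR-204-5p mimics means of 1.28 and a log2FC of −0.12 (limma adjusted p = 0.0775), which quantile normalization moved past the threshold (−0.175, limma adjusted p = 0.0240). SLC25A27, with the 7mer-m8, was among the carriers that rose. Of the 7 carriers with a 7mer-A1 only, SLC25A44 was lower and SLC25A37 higher, while SLC25A4, SLC25A16, SLC25A22, SLC25A29 and SLC25A33 did not pass. The 3′UTR of SLC25A4 holds 3 such matches, and that of SLC25A24 holds a 7mer-A1 (chromosome 1, 108136084 to 108136090) beside its 8mer. SLC25A5 and SLC25A20, both lower with miR-204-5p mimics, had no match of 7 bases in the longest 3′UTR.

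Genes that import the carriers or work beside them were taken from lists. Precursors of carriers cross the TOM complex of the outer membrane, are held by small TIM chaperones and are inserted by the TIM22 complex. Of 16 genes of this route, 9 were higher, none was lower (1 at an unadjusted p under 0.05 in limma) and 7 did not pass, and the median log2FC was 0.16. Over all genes 23.9% were higher and 16.8% lower, with a median of 0.03. The 2 genes with the largest rise were the small TIM chaperone genes TIMM8B, at 25.9 ± 7.61 against 14.7 ± 1.06 FPKM (SD, n = 3; log2FC 0.73, limma adjusted p = 0.0317), and TIMM10, at 64.0 ± 10.2 against 38.9 ± 1.86 FPKM (log2FC 0.69, limma adjusted p = 0.00338). The number of higher genes was 5 without control mimics replicate 2. Of 4 carrier relatives with other symbols, MTCH1, an outer membrane protein, was higher (log2FC 0.20, limma adjusted p = 0.00406), and MTCH2, UCP2 and UCP3 did not pass.

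Of 10 other gates for metabolites, 4 were higher, 2 lower and 4 did not pass. VDAC1, the main pore of the outer membrane, had 158 ± 3.61 against 99.8 ± 7.63 FPKM (SD, n = 3; log2FC 0.66, limma adjusted p = 0.000351). VDAC2 was higher with a log2FC of 0.54 (limma adjusted p = 0.0465), although its groups overlapped. The sideroflexins differed in direction. SFXN5 (−0.42, limma adjusted p = 0.00382) and SFXN1, a serine transporter (−0.30, limma adjusted p = 0.00215), were lower. SFXN2 (0.22, limma adjusted p = 0.0150) and SFXN3 (0.18, limma adjusted p = 0.0158) were higher, and SFXN4 (0.22, limma adjusted p = 0.0909) did not pass. The number of higher genes was 2 without control mimics replicate 3.

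Among 10 enzymes of the shuttles that the carriers serve, 4 were higher, 1 lower and 5 did not pass. GOT1, the cytosolic aspartate aminotransferase of the malate-aspartate shuttle, had 53.9 ± 3.10 against 32.4 ± 0.740 FPKM (SD, n = 3; log2FC 0.72, limma adjusted p = 0.000163). MDH2, the mitochondrial malate dehydrogenase, had 69.1 ± 3.40 against 44.8 ± 1.33 FPKM (log2FC 0.61, limma adjusted p = 0.000215). MDH1 was higher too, whereas the mitochondrial aminotransferase GOT2 had a log2FC of −0.01 (limma adjusted p = 0.894). The carriers of the malate-aspartate shuttle are SLC25A11, SLC25A12 and SLC25A13, given above: 2 were higher, and SLC25A12 did not pass but was called lower under 4 alternatives. GPD1L, related to the glycerol-3-phosphate shuttle enzymes, was lower, at 8.61 ± 0.697 against 15.3 ± 0.247 FPKM (log2FC −0.76, limma adjusted p = 0.000273). The 13 mRNAs of mitochondrial DNA have no row under their symbols in the expression table and were not analysed here.

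**Figure D4:**
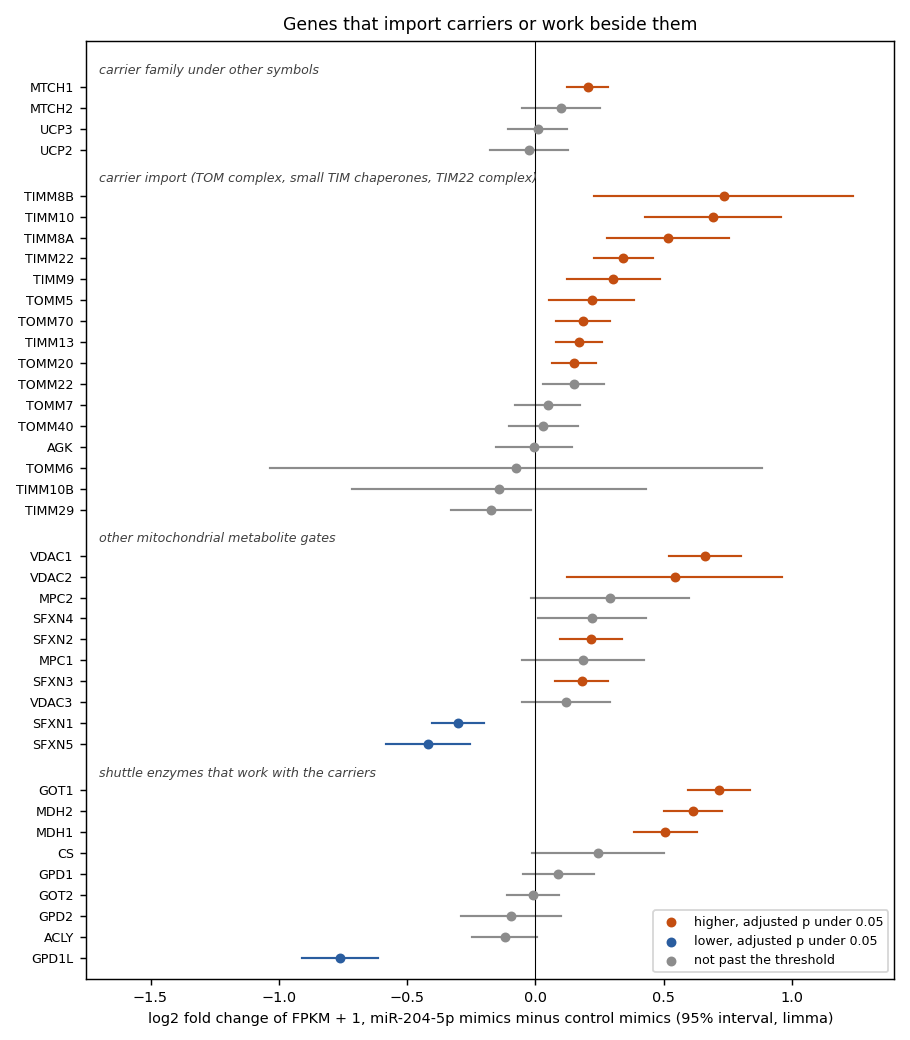
Log2 fold change of FPKM + 1 (miR-204-5p mimics minus control mimics) with its 95% interval from limma for 39 genes of 4 lists: carrier relatives, carrier import, other metabolite gates and shuttle enzymes. Orange marks genes higher, blue genes lower with an adjusted p under 0.05 and gray the others. In the import list 9 of 16 genes are orange and none is blue.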

How the data were processed

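RNA-seq libraries (Illumina TruSeq, HiSeq X) were grouped by their transfection labels, 3 of miR-204-5p mimics and 3 of control mimics. The FPKM values were computed and deposited by the authors. The submitters' processing notes name HISAT2, StringTie and hg38 (versions and annotation not given in the sources used here). The length deposited by the authors belongs to 1 listed transcript per gene and is no measure of the denominator (other column). Multiplied by the merged exon length of coding and nonsense-mediated-decay transcripts in GENCODE 29, FPKM became whole multiples of the sixth decimal (within 0.01, in all 6 libraries) for 96.4% of 5847 testable genes, against 4.0% with the listed length, so a gene value pools its transcripts. The authors' log2 ratios, p-values and FDR in the same table hold their own comparison and were not used.

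Counts were not recovered. Genes whose FPKM values stop at the sixth decimal were taken to have 1 transcript in the authors' files. In them, 33.1% to 40.4% of the small FPKM values fell on multiples of the best-matching step (within 0.05, where an even spread gives 10%). If that step is 1 read, depth was 26100000 to 32900000 reads, which may count single mates. The fewest reads behind a carrier value were then about 18.9, for SLC25A18 in miR-204-5p mimics replicate 1.

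log2(FPKM + 1) was fitted with limma 3.58.1 (lmFit, eBayes with trend) in R 4.3.3, two-sided, unfiltered, with Benjamini-Hochberg adjustment at 0.05 over 14959 genes, and checked on simulated data. Alternatives were a pseudocount of 0.1, a mean FPKM of at least 1, a replicate block, equal medians, equal sums, quantile normalization, no trend, and each library left out. Carrier pairs and their alternatives were added after seeing the data. Members and lists were chosen with earlier results of these data known. A carrier and a shuttle enzyme are counted but not reported here, nor drawn in figures. Other members could be named, with library values by rule for the ADP/ATP and phosphate carriers and for members called with an absolute log2 fold change of at least 0.5. Library values of other members were added after they were seen. From each list up to 2 called genes per direction were named by rule, and the other list genes named were chosen after seeing their values. Python 3.11.15, pandas 2.3.3, numpy 2.4.6, scipy 1.17.1 and matplotlib 3.10.9 were used.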

Additional observations from a re-analysis of the deposited data

How the results depend on the processing

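Of the 18 carriers called, 13 passed under every alternative that gave a value for them, and SLC25A17, SLC25A18, SLC25A28, SLC25A30 and SLC25A46 did not. With a library left out, the number of carriers higher ran from 10 to 12 and lower from 3 to 5, the fewest lower without control mimics replicate 2, among 2876 to 3138 genes higher and 2045 to 2271 lower in all. The median of the carriers ran from 0.048 to 0.067 in these fits, and was 0.078 with a mean FPKM of at least 1, 0.019 with equal medians, 0.020 with equal sums and 0.005 with quantile normalization. Scalings shifted the median of all genes by at most 0.032. The import list ran from 5 to 8 higher with a library left out, with 1 lower under equal medians and equal sums. The other metabolite gates ran from 2 to 4 higher, with 2 under equal sums, quantile normalization and the replicate block. Shuttle enzymes had 2 lower with equal medians. Among carriers that were not called, near-zero values changed sign: SLC25A1 (−0.002 with equal medians, −0.001 with equal sums), SLC25A39 (−0.014, −0.013), SLC25A23 (−0.035, −0.034, −0.021 with quantile normalization, −0.013 without miR-204-5p mimics replicate 1, −0.042 to 0.035 with a control library left out), SLC25A26 (−0.007 with quantile normalization), SLC25A14 (−0.094 to 0.183 with a library left out, −0.062 without control mimics replicate 2), SLC25A40 (−0.055 to 0.012 with a library left out, 0.005 without control mimics replicate 3) and SLC25A51 (0.054 without miR-204-5p mimics replicate 3, −0.107 to 0.057 with a control library left out, 0.007 of these without replicate 2). The cause was not tested. Same-numbered libraries did not deviate together (correlations −0.040, −0.021 and −0.108). The values thus gave no sign of pairing by number, which so few libraries cannot settle. With the replicate block 11 carriers were higher and 4 lower, among 2999 and 2097 of all genes, SLC25A18, SLC25A28 and SLC25A30 no longer passing (limma adjusted p of 0.0767 or more). FPKM without counts limits what can be said of carriers below 1 FPKM.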

Other observations

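Carriers whose gene span, introns included, overlaps that of a gene on the opposite strand did not follow that gene in every case. Bases that are exons of both genes were not counted, so whether reads are shared was not tested. SLC25A12 overlaps HAT1, which encodes a histone acetyltransferase, by 61235 bases. The merged exons of SLC25A12 have 3236 bases, so most of this overlap lies outside them. HAT1 was higher with miR-204-5p mimics (25.8 against 14.3 FPKM, log2FC 0.81, limma adjusted p = 0.00151), while SLC25A12 had −0.16. SLC25A32, a folate carrier, overlaps DCAF13 by 476 bases. DCAF13, a factor of ribosome assembly, was higher (19.6 against 11.2 FPKM, log2FC 0.75, limma adjusted p = 0.000156), while SLC25A32 had 0.12 (limma adjusted p = 0.405). SLC25A11 and RNF167, which overlap by 244 bases, were both higher (0.40 and 0.13, limma adjusted p = 0.00291 and 0.0280). These genes were chosen for their overlap with a carrier after their values had been seen.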
